A study of Mus musculus with 8 samples.

Results

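The genes described here are those of the iron-responsive element (IRE) system: the ferritin subunits Fth1 and Ftl1, the iron exporter Slc40a1, the transferrin receptor Tfrc, the iron importer Slc11a2, and the iron regulatory proteins Aco1 and Ireb2. These 7 genes were taken by name, 7 of the 21765 gene rows of a table of polysome-associated RNA from the main olfactory epithelium of mice. All 7 passed the filter on low values. An IRE is a short RNA hairpin in an untranslated region (UTR), and iron regulatory proteins bind it when iron in the cell is low. Bound to a hairpin before the coding sequence, they block translation of ferritin and of the exporter, and bound to hairpins after it, they protect the transferrin receptor mRNA from decay. Iron converts Aco1 protein to an enzyme, cytosolic aconitase, and leads to the breakdown of Ireb2 protein.

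Mex3a encodes an RNA-binding protein, and the study compared polysomes of mice with and without it. Wild-type (WT) mice carried Mex3a flox/flox or Mex3a flox/+ alleles with no Cre, and conditional knockout (cKO) mice carried Mex3a flox/flox with a Cre. All tissue, in both genotypes, was dissected into cycloheximide, which holds ribosomes on mRNA, and lysates were spun through sucrose gradients. Lighter fractions 27 to 34 were pooled as early polysomes and heavier fractions 35 to 42 as late polysomes, giving 4 groups of 2 libraries from 2 WT and 2 cKO lysates. Age, sex and the number of animals per lysate are not given in the sources used here, and the whole epithelium was lysed, so a change in the share of a cell type and a change in RNA per cell cannot be told apart. The series' design text speaks of sorted cells and of HyperTRIBE transgenes under gg8-tTA and OMP-tTA drivers, which the labels of these libraries do not mention. The labels do not say that lysates of a group came from separate animals, so p-values may measure only the spread between these libraries.

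Reads inferred from the steps of the values summed to 7776792 to 12771079 per library, and the pair of replicates in each group had a correlation over genes of 0.978 to 0.985. Deposited Mex3a was 97.4 and 115.6 TPM (transcript abundance corrected for length and library total) in WT early and 93.2 and 95.6 TPM in WT late libraries, against 13.9 and 19.8 TPM in cKO early and 11.1 and 13.8 TPM in cKO late libraries. By its genotype tag, replicate 2 of WT early would be a cKO, which goes against its title. It had the highest Mex3a of all libraries and was kept as WT. Part of the results that rest on it are given without it too. Markers of mature olfactory neurons summed to 6107 to 10590 scaled TPM and those of sustentacular cells to 5426 to 7726 scaled TPM, so RNA of both cell types was present in every library.

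The hairpins are shown first because they are what the ferritin, Slc40a1, Tfrc and Slc11a2 mRNAs share and what sets their known roles apart. A search of the UTRs of annotated protein-coding transcripts (GENCODE M21, GRCm38, sense strand) looked for C, 5 bases, the loop CAGTGN, and 5 bases that pair with the first 5, with a G-T pair allowed and at most 1 base unpaired. In the sequences below, 29 bases each, 5′ to 3′ on the strand of the mRNA, capitals mark the loop. The ferritin and exporter hairpins lie in the 5′ UTR, all in exon 1: Fth1 at chr19:9982732-9982760 (plus strand), Ftl1 at chr7:45459779-45459807 (minus strand) and Slc40a1 at chr1:45925465-45925493 (minus strand). Tfrc has 4 in the 3′ UTR, all in exon 19 of 19 on the plus strand, at chr16:32631219-32631247, chr16:32631598-32631626, chr16:32631663-32631691 and chr16:32631710-32631738. Slc11a2 has 1 in the 3′ UTR, with 1 stem base unpaired, at chr15:100395153-100395181 (minus strand), in exon 16 of 16 of the transcript Slc11a2-205 alone.
Fth1: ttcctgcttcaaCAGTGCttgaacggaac
Ftl1: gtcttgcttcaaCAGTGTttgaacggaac
Slc40a1: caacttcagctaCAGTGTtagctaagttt
Tfrc 1: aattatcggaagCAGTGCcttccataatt
Tfrc 2: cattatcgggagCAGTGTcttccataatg
Tfrc 3: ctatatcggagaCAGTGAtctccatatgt
Tfrc 4: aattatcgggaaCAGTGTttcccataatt
Slc11a2: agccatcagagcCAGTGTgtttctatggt

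Aco1 and Ireb2 had no match in their UTRs. Among all genes with an annotated UTR, 205 of 20580 (0.996%) held such a hairpin in the 5′ UTR and 872 of 20962 (4.16%) in the 3′ UTR. With all 5 stem bases paired, as in the ferritins, Slc40a1 and the 4 hairpins of Tfrc, the shares were 0.151% and 0.615%. A match is a description of letters and not a site shown to bind. Slc11a2 and Slc40a1 transcripts with and without the hairpin share 1 gene row, so their separate levels are not measured here.

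The 7 mRNAs spanned a wide range of abundance on polysomes. TPM divides by transcript length, so levels can be compared between genes. Fth1, the heavy chain of the iron-storing ferritin shell, averaged 264 scaled TPM over the 8 libraries (range 195 to 391), above 96.7% of the 16097 genes tested. Ftl1, the light chain, averaged 261 scaled TPM (range 190 to 354), and the ferritin ranges overlapped. Ireb2 came next at 61.2 scaled TPM (range 52.4 to 67.2), followed by Tfrc at 49.6 (range 35.7 to 63.6), again with overlapping ranges. Aco1 averaged 23.6 scaled TPM (range 14.4 to 31.0) and Slc11a2 20.5 (range 15.9 to 27.7), which also overlapped. Slc40a1 was the lowest at 5.53 scaled TPM (range 3.21 to 7.40), its range apart from the others, and rested on 31 to 114 reads per library, against 920 to 2689 for Fth1.

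**Figure D1:**
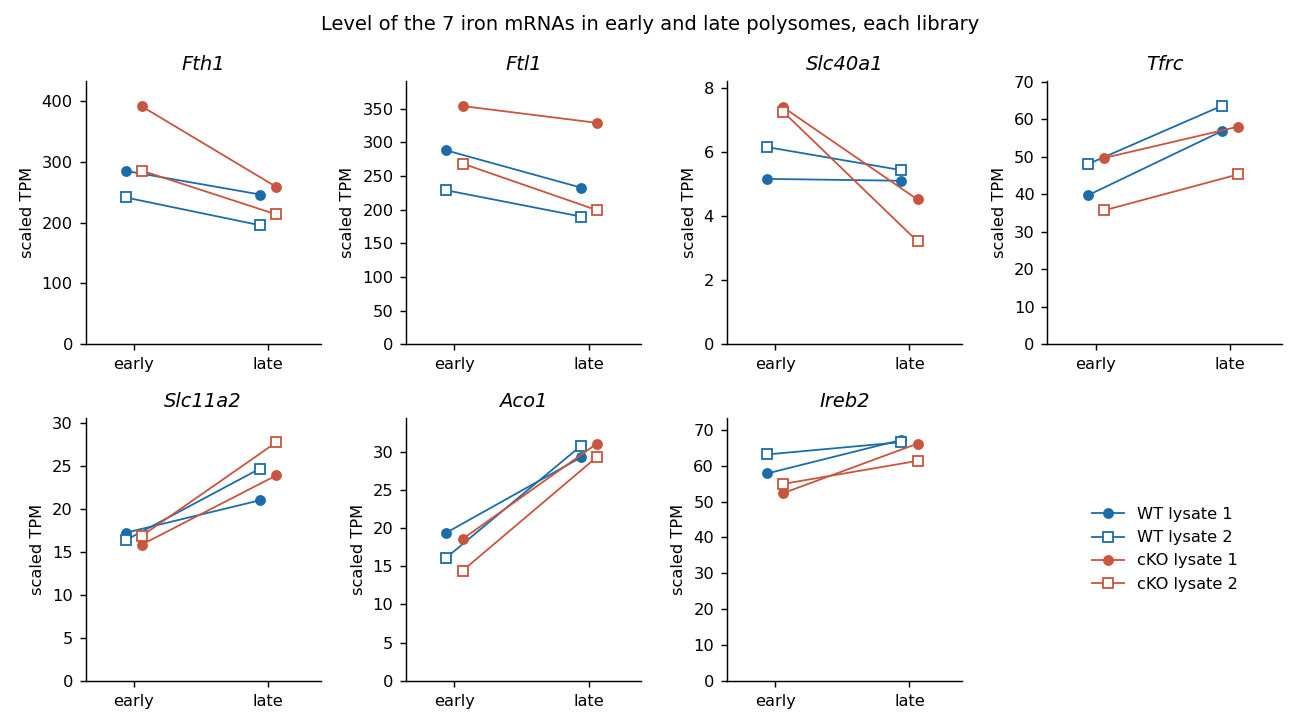
Level of each of the 7 iron mRNAs (scaled TPM, vertical axes from 0) in early and late polysomes, 1 point per library, with lines joining the early and late library of each lysate. The ferritins slope down and Tfrc, Slc11a2, Aco1 and Ireb2 slope up. Slc40a1 drops most in the cKO lysates and is nearly flat in the first WT lysate, at 5.17 and 5.11.

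The first comparison asked where on the gradient each mRNA lay. Averaged over both genotypes, 6 of the 7 members passed an adjusted p of 0.05 between late and early polysomes (limma, Benjamini-Hochberg), 2 lower and 4 higher in late polysomes, where 68.9% of all tested genes passed, 34.8% lower and 34.2% higher. The share of the members is therefore near that of all genes. Fth1 and Slc40a1 fell, Tfrc, Slc11a2, Aco1 and Ireb2 rose, and Ftl1 did not pass. In scaled TPM each member moved the same way in 4 of 4 lysates, and the share of all tested genes that did so was not counted. For Slc40a1 this rested on the scaling. In TPM as deposited it rose in the first WT lysate, from 5.13 in the early to 5.39 in the late library. Only Slc11a2 and Aco1 had late libraries that did not overlap the early ones over all 8 libraries, a pattern found in 62.5% of tested genes. Calls depended on single libraries: 3 members passed without WT early replicate 1, WT late replicate 1 or WT late replicate 2.

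Fth1 was at 285 and 241 scaled TPM in WT early and 246 and 195 in WT late libraries. Early polysomes of cKO held 391 and 285 scaled TPM and late ones 259 and 213. WT early and late values overlapped, while the cKO early values lay above the cKO late ones. Late polysomes held 0.864 and 0.811 of the early level in the WT lysates and 0.662 and 0.748 in the cKO lysates. On the log2(scaled TPM + 1) scale the mean change was -0.38 (SE 0.13, adjusted p = 0.0294 by limma with Benjamini-Hochberg). The call was lost in TPM as deposited, at -0.26 (adjusted p = 0.104, limma), and under quantile normalization, at -0.18 (adjusted p = 0.261, limma). It was also lost with no filter, without the mean-variance trend, and without WT early replicate 1, WT late replicate 2, cKO early replicate 1 or cKO late replicate 2.

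Ftl1 was at 288 and 229 scaled TPM in WT early and 233 and 190 in WT late libraries. The cKO early libraries held 354 and 269 and the cKO late libraries 329 and 199. The first lysate of each genotype was the higher one in both fractions, and early and late values overlapped in both genotypes. The mean change was -0.28 (SE 0.17, adjusted p = 0.184 by limma with Benjamini-Hochberg). With lysate as a replicate block, which removes the difference between lysates, the same change had an adjusted p of 0.0262 (limma). It also passed without cKO late replicate 1, at -0.46 (adjusted p = 0.0237, limma). The ratio of Fth1 to Ftl1 was 0.988 to 1.10 in 7 libraries and 0.785 in cKO late replicate 1, and the subunits together made up 0.0413% to 0.0713% of all TPM. GENCODE lists 5 ferritin copies (Fth-ps2, Fth-ps3, Ftl1-ps1, Ftl1-ps2 and Ftl2-ps) that could share reads with the ferritins, and Ftl1 overlaps the miRNA gene Gm22133 and, on the other strand, Gm10252, so the ferritin levels are uncertain to that extent.

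Slc40a1 encodes ferroportin, the only known iron exporter of mammalian cells. It was at 5.17 and 6.16 scaled TPM in WT early and 5.11 and 5.44 in WT late libraries. In cKO early libraries it reached 7.40 and 7.26, and in cKO late libraries 4.52 and 3.21. WT fractions overlapped, whereas the cKO early values were the highest of all libraries and the cKO late values the lowest. The mean change was -0.44 (SE 0.13, adjusted p = 0.0173 by limma with Benjamini-Hochberg). The fall was -0.08 (SE 0.19, adjusted p = 0.73, limma) in WT and -0.79 (SE 0.19, adjusted p = 0.00708, limma) in cKO lysates. The mean call was lost without WT early replicate 2, the library with the conflicting tag (adjusted p = 0.0623, limma), and without WT late replicate 1 (adjusted p = 0.0514, limma).

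Tfrc encodes the receptor that takes up iron bound to transferrin. Its level was 39.7 and 48.0 scaled TPM in WT early and 56.8 and 63.6 in WT late libraries. The cKO lysates had 49.6 and 35.7 on early and 58.0 and 45.3 on late polysomes. The WT fractions did not overlap, and the cKO ones did, with the second cKO lysate the lower in both fractions. Late polysomes held 1.43 and 1.32 times the early level in WT lysates and 1.17 and 1.27 times in cKO lysates. The mean change was 0.37 (SE 0.13, adjusted p = 0.0326 by limma with Benjamini-Hochberg). It no longer passed with no filter, without the trend, or without any 1 of WT early replicate 1, WT late replicate 1, WT late replicate 2, cKO early replicate 2 or cKO late replicate 1.

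Slc11a2 encodes DMT1, which moves ferrous iron across the cell and endosome membranes. In early polysomes it was at 17.2 and 16.4 scaled TPM in WT and 15.9 and 16.9 in cKO libraries. Late polysomes held 21.0 and 24.7 scaled TPM in WT, and 23.9 and 27.7 in cKO. All 4 late values lay above all 4 early ones. The mean change was 0.52 (SE 0.091, adjusted p = 0.000994 by limma with Benjamini-Hochberg), and it passed in every alternative run for that average. The gene overlaps Gm5475 on the other strand.

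Aco1, the iron regulatory protein that doubles as cytosolic aconitase, had the largest shift of the 7. Its early level was 19.4 and 16.1 scaled TPM in WT and 18.6 and 14.4 in cKO libraries. Late polysomes carried 29.2 and 30.7 scaled TPM of it in WT, and 31.0 and 29.3 in cKO. The fractions were fully apart, and the late values of the genotypes overlapped. The mean change was 0.79 (SE 0.10, adjusted p = 0.000206 by limma with Benjamini-Hochberg), which held in every alternative run for it.

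Ireb2, the regulator whose protein is removed when iron is plentiful, shifted least. It was at 57.8 and 63.1 scaled TPM in WT early and 67.2 and 66.6 in WT late libraries. The cKO lysates had 52.4 and 54.9 on early and 66.2 and 61.4 on late polysomes. Fractions did not overlap within a genotype, but the higher WT early library lay above the lower cKO late library. The mean change was 0.19 (SE 0.066, adjusted p = 0.0283 by limma with Benjamini-Hochberg). With lysate as a replicate block its adjusted p was 0.0550 (limma), and it was also lost without the trend, with a mean TPM of at least 5, and without WT early replicate 1, either WT late library, cKO early replicate 1 or cKO late replicate 1. Since Aco1 shifted more than Ireb2, their ratio was 0.256 to 0.354 in early and 0.435 to 0.477 in late libraries.

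Within WT alone, 2 of the 7 members passed (Slc11a2 and Aco1, both higher in late polysomes), against 54.8% of tested genes. Fractions did not overlap in WT for 4 of 7 (Tfrc, Slc11a2, Aco1 and Ireb2), against 80.2% of genes. The changes were 0.42 (SE 0.13, adjusted p = 0.0235) for Slc11a2 and 0.73 (SE 0.15, adjusted p = 0.00357) for Aco1 by limma with Benjamini-Hochberg adjustment. Slc11a2 was lost without WT early replicate 2 (adjusted p = 0.111, limma), WT early replicate 1 or WT late replicate 2. Tfrc, at 0.45 (adjusted p = 0.0647, limma), passed with lysate as a replicate block (adjusted p = 0.0116, limma). Without WT early replicate 2 the WT changes of Aco1 and Tfrc were 0.60 and 0.59. In cKO alone 4 members passed, against 58% of tested genes, and 5 of 7 did not overlap, against 80% of genes. Slc40a1 and Fth1 fell, Fth1 with a change of -0.51 (SE 0.19, adjusted p = 0.0442, limma), and Slc11a2 and Aco1 rose, by 0.62 (adjusted p = 0.00355, limma) and 0.84 (adjusted p = 0.00151, limma). The Fth1 call in cKO was lost without WT early replicate 2 (adjusted p = 0.0558, limma), without WT early replicate 1, with no filter, without the trend and with only the 4 cKO libraries. It was also lost with a smaller change in TPM as deposited (-0.37), under quantile normalization (-0.25), without cKO early replicate 1 (-0.28) and without cKO late replicate 2 (-0.37).

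Coding length goes with the position of an mRNA on the gradient, since a longer coding sequence has room for more ribosomes. Each member was therefore set beside the tested genes whose longest coding sequence was within 20% of its own, as a description with no test. Fth1 has 546 coding bases, and its mean change of -0.38 lay above that of 82.0% of 1301 genes of like length, whose median was -0.83. Ftl1, at 549 bases, lay above 86.0% of 1311 such genes (median -0.83). The fall of Ftl1 did not pass the threshold, and the call of Fth1 was lost in some alternatives. As measured, both ferritins, although lower in late polysomes, fell less than most mRNAs as short as they are. Slc40a1, at 1710 bases, went the other way. Its change of -0.44 lay above only 11.2% of 3130 genes of like length, whose median was 0.26. In WT it lay above 30.7% of them and in cKO above 2.81%.

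Of the remaining members, Aco1 also lay above the upper quartile of genes of its length, at 0.79 beside 0.72. Tfrc, Slc11a2 and Ireb2 lay between the quartiles of theirs. Tfrc, at 2289 bases, was above 49.2% of 2424 genes, with a change of 0.37 beside a median of 0.37. Slc11a2, at 1704 bases, was above 67.3% of 3118 genes (median 0.26). The regulators differed: Aco1, at 2667 bases, was above 80.1% of 2100 genes (median 0.42), and Ireb2, at 2889 bases, above 30.2% of 1881 genes (median 0.43). Among members with a hairpin in the 5′ UTR, the ferritins thus lay above and Slc40a1 below the genes of their length.

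**Figure D2:**
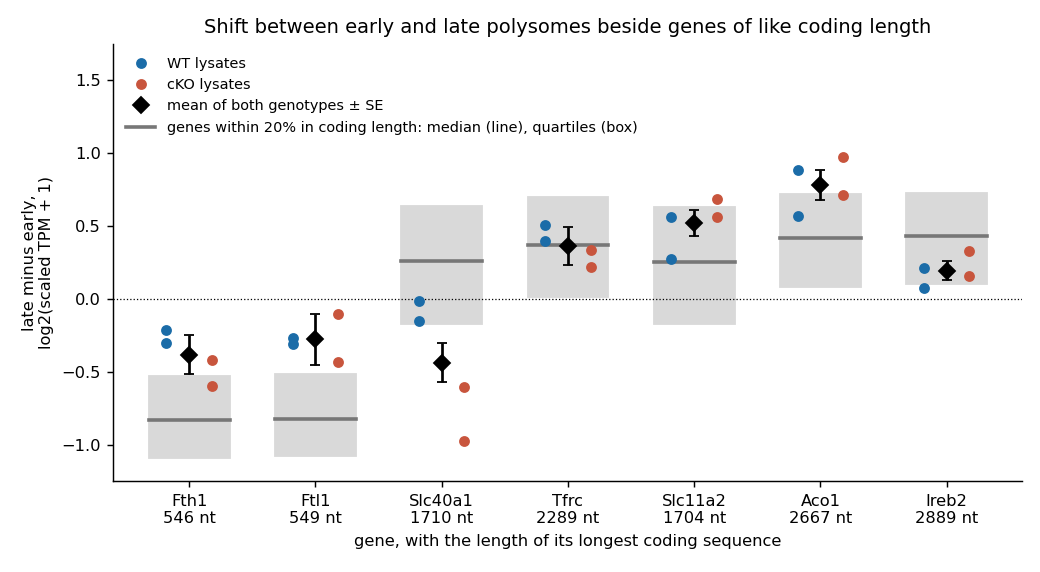
Late minus early change of each member on the log2(scaled TPM + 1) scale, with points for the 4 lysates, a diamond with its standard error for the mean of both genotypes, and grey boxes for the quartiles and median of tested genes within 20% in coding length. The ferritin and Aco1 means sit above their boxes, Slc40a1 sits below its box in both cKO lysates, and Tfrc sits on the median of its box.

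The second comparison asked whether loss of Mex3a changed these mRNAs on polysomes. No member passed in early polysomes, in late polysomes or on lysate means (0 of 7 each by limma with Benjamini-Hochberg, also 0 at an unadjusted p under 0.05 and 0 with voom on whole reads), where 0.0435%, 0.0124% and 0.00621% of all tested genes passed. At an unadjusted p under 0.05 the shares of all genes were 6.63%, 9.32% and 11.3%. In early polysomes 3 of 7 members had genotypes that did not overlap, against 37.1% of tested genes: Fth1 and Slc40a1 were higher and Ireb2 lower in cKO. For Fth1 this rested on 285.1 scaled TPM in cKO early replicate 2 against 284.8 in WT early replicate 1. In TPM as deposited these were 267.2 and 282.6, so Fth1 overlapped, and Slc40a1 (higher), Ireb2 and Slc11a2 (both lower) were the 3 of 7 that did not. In late polysomes Slc40a1 and Ireb2 were lower in both cKO libraries, with 40.7% of genes not overlapping. Tfrc joined them in TPM as deposited. The 37.1% and 40.7% are shares in scaled TPM, and the shares of all genes in TPM as deposited were not counted. On lysate means only Ireb2 did not overlap, against 43.7% of genes.

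Early Fth1 was 338 ± 75 scaled TPM in cKO and 263 ± 31 in WT libraries (SD, n = 2 each). The difference of 0.35 log2 (SE 0.19, adjusted p = 0.796 by limma with Benjamini-Hochberg) ranged from 0.12 without cKO early replicate 1 to 0.57 without cKO early replicate 2, was 0.23 without WT early replicate 2, and had an unadjusted p of 0.0447 with voom (adjusted 0.633). In late polysomes the Fth1 difference was 0.10 (SE 0.19, adjusted p = 0.90, limma). Ftl1 differed by 0.26 (SE 0.24) in early and 0.28 (SE 0.24) in late polysomes, within the spread of its libraries, and the early value was 0.10 without WT early replicate 2. The Ireb2 difference between cKO and WT was -0.17 (SE 0.094, adjusted p = 0.807, limma) in early polysomes (-0.11 without WT early replicate 2) and -0.07 (SE 0.094, adjusted p = 0.852, limma) in late polysomes. On lysate means the Ireb2 difference was -0.12 (SE 0.066, adjusted p = 0.537, limma). Tfrc, Slc11a2 and Aco1 differed by -0.14 (SE 0.15), 0.07 (SE 0.093) and -0.05 (SE 0.10) on lysate means, each within 1 standard error.

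Slc40a1 had the largest genotype difference of the 7 in late polysomes, with the opposite sign to that in early polysomes. Slc11a2 (-0.04 and 0.17) and Aco1 (-0.11 and 0.01) also differed in sign between early and late polysomes, by less. Slc40a1 was higher in cKO by 0.33 (SE 0.19, adjusted p = 0.815 by limma with Benjamini-Hochberg) in early polysomes and lower, at -0.38 (SE 0.19, adjusted p = 0.575, limma) in late polysomes. The early difference was 0.43 without WT early replicate 2. The late difference was -0.57 without cKO late replicate 1 and -0.18 without cKO late replicate 2. The interaction of genotype and fraction was -0.71 (SE 0.27, unadjusted p = 0.0279, adjusted p = 1.0 by limma with Benjamini-Hochberg), so it did not hold up over all genes, 2.8% of which had an unadjusted p under 0.05. The interaction was -0.90 without cKO late replicate 1 and -0.51 without cKO late replicate 2, where its unadjusted p was 0.0843 (limma). Without WT early replicate 2 the interaction was -0.81. With all libraries Slc40a1 was the only member of 7 under an unadjusted 0.05, and 0 of 7 passed after adjustment, against 0.00621% of tested genes. The level nearest to 0 among all member values, 3.21 scaled TPM, was cKO late replicate 2, the library with the fewest reads, where 31 reads lay behind it.

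**Figure D3:**
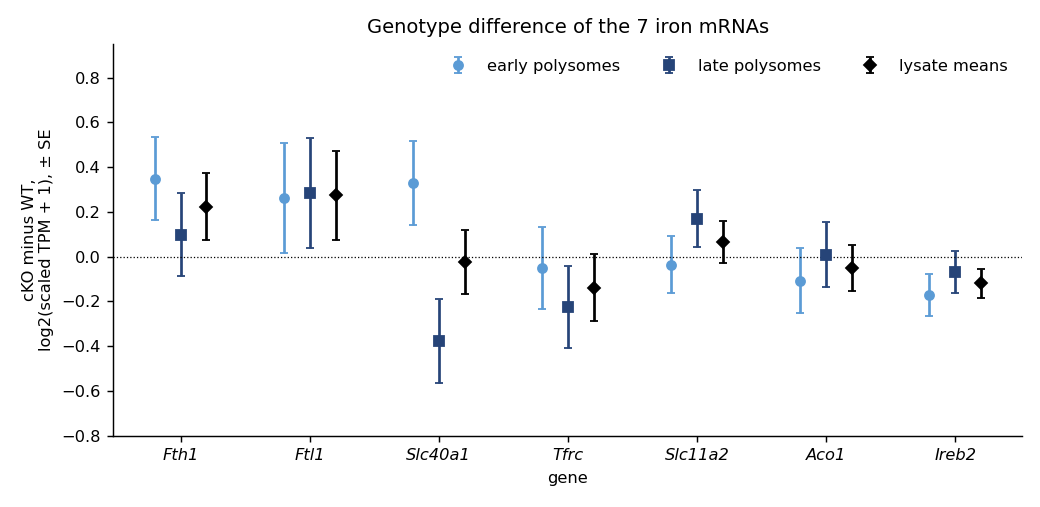
Difference between cKO and WT for each member on the log2(scaled TPM + 1) scale, in early polysomes, late polysomes and on lysate means, with standard errors. Slc40a1 lies above 0 in early and below 0 in late polysomes, the ferritins lie above 0 and Ireb2 below 0 in both, and no member passed the adjusted threshold.

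Ferritin and ferroportin are abundant in macrophages that recycle red cells. Markers of macrophages in general were summed per library, and they do not single out those that recycle red cells. The 8 macrophage markers (Cd68, Csf1r, Adgre1, C1qa, C1qb, C1qc, Mrc1 and Cd163) summed to 194 and 173 scaled TPM in WT early and 214 and 200 in cKO early libraries. In late polysomes they summed to 203 and 220 in WT and 257 and 262 in cKO libraries. The cKO sums were the higher in both fractions, with no marker passing between genotypes (0 of 8 by limma with Benjamini-Hochberg and by voom). At an unadjusted p under 0.05 (limma) there were 0 of 8 in early and 2 of 8 in late polysomes, against 6.63% and 9.32% of all tested genes. Neutrophil markers summed to 331 and 368 in WT early and 477 and 402 in cKO early libraries, and to 464 and 388 in WT late and 656 and 420 in cKO late libraries, where the genotypes overlapped. Most of each late sum was 1 marker, Ltf, at 392 and 296 scaled TPM in WT late and 575 and 350 in cKO late libraries. Ltf rose between early and late polysomes, while the other 4 of the 5 markers fell, so the sums do not stand for the markers as a set. The part of these cells in the ferritin and Slc40a1 values was not tested.

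Other mRNAs with a known or proposed IRE were mixed. Of 8 listed, 7 were tested, and 3 rose and 2 fell between early and late polysomes, with a median change of 0.09 beside -0.01 over all genes tested. Epas1, the hypoxia-inducible factor HIF-2 alpha, rose by 0.44 (SE 0.090, adjusted p = 0.00241 by limma with Benjamini-Hochberg), close to the median of 0.41 among genes of its length. Alas2, the erythroid enzyme of haem synthesis, changed by 0.09 (SE 0.13, adjusted p = 0.55, limma). Pfn2, a profilin, fell by 1.33, and Cdc14a, a phosphatase, fell by 0.26. Cdc42bpa, a kinase, rose by 0.17.

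The rest of the iron pathway was counted by list, beside 34.2% of all tested genes higher and 34.8% lower in late polysomes. Of 21 tested iron transport genes, 9 rose and 7 fell between early and late polysomes, with a median change of 0.13. Abcb6, a porphyrin transporter, rose by 0.96, and Heph, the oxidase that works beside ferroportin, by 0.69. Slc25a37 and Slc25a28, the mitoferrins that bring iron into mitochondria, changed by -0.84 and -0.70. Among 7 genes of ferritin handling and iron regulatory protein turnover, 3 rose and 3 fell. Ncoa4, the receptor that delivers ferritin to lysosomes, rose by 0.64, and the ferritin iron chaperone Pcbp1 rose by 0.70. Pcbp2 of the same list went the other way, with a change of -0.32. Fbxl5, the iron-sensing subunit of the ligase that marks Ireb2 protein for breakdown, fell by 0.66, and its partner Skp1a fell by 0.69, while Cul1 of the same ligase rose by 0.40.

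Of 13 genes of haem synthesis and breakdown, 8 rose and 3 fell (median 0.36). Urod, Alas1 and Hmox1, which make or break down haem, rose by 1.18, 1.07 and 0.96, and Fech, the last enzyme of haem synthesis, fell by 0.48. Iron-sulfur cluster assembly went the other way, with 18 of 26 genes lower and 7 higher in late polysomes and a median of -0.92, beside 34.8% lower and 34.2% higher over all tested genes. The list is short in coding length, with a median of 796.5 bases for its 24 genes with an annotated length against 1335 over all tested genes, and the part of length in the count was not tested. The cytosolic assembly factors Fam96b and Fam96a fell, with changes of -1.61 and -1.42, whereas Ciao1 of the same pathway rose by 1.23. None of the 73 tested genes of these lists passed between genotypes or in the interaction (0 by limma with Benjamini-Hochberg and 0 by voom). At an unadjusted p under 0.05 (limma) there were 2 in early polysomes, 9 in late polysomes, 7 on lysate means and 1 in the interaction. The shares of all tested genes at that level were 6.63%, 9.32%, 11.3% and 2.8%.

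**Figure D4:**
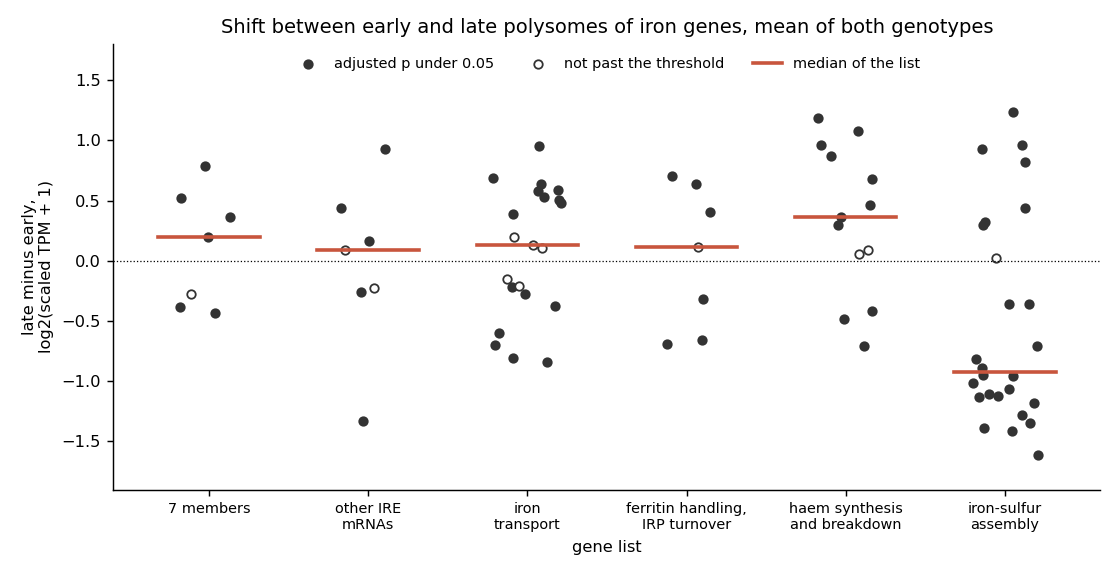
Late minus early change of every tested gene in the 7 members and 5 iron gene lists on the log2(scaled TPM + 1) scale, mean of both genotypes, with filled points for an adjusted p under 0.05 and lines for list medians. The medians run from 0.36 for haem genes to -0.92 for iron-sulfur assembly, and every list has genes on both sides of 0.

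Genes with the most similar pattern over the 8 libraries were found by the root mean square difference of centred log2 values among 12191 genes. For Slc11a2 the nearest were Ifi30 (0.026) and Prdx1 (0.045), and for Aco1 Utp3 (0.033) and Pck2 (0.034). Ireb2 was nearest to Atp1b1 (0.035) and Ppp3ca (0.037), and Tfrc to Coq6 (0.061) and Mbd4 (0.081). Slc40a1 had Fbxw17 (0.097) and Plgrkt (0.107), and Fth1 had Pxylp1 (0.106) and Spop (0.110). Ftl1 was nearest to Rpsa (0.135) and then to Fth1 itself (0.145). The other ferritin subunit was thus the second nearest of all candidates to Ftl1, which had the most distant nearest neighbour of the 7.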

How the data were processed

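The authors deposited 1 table of TPM per gene symbol with 1 column per library. The genome build mm10 and the tools FastQC, cutadapt, STAR and DESeq2 are named per the submitters' processing notes, and their roles, the counting method and the annotation are not given in the sources used here. Groups and replicate numbers came from sample titles. Libraries were put on 1 scale with median ratios as divisors (0.937 to 1.07), and log2(scaled TPM + 1) of the 16097 genes with a mean TPM of at least 1 was tested with limma 3.58.1 (R 4.3.3), with all 4 groups in 1 model and moderated variances that follow a trend on mean level. Two-sided p-values were adjusted by Benjamini-Hochberg over all tested genes (threshold 0.05). Fold changes on this scale understate the change of low genes. The fit was tested on simulated data.

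TPM states no depth. Values of a gene were whole multiples of a step, which gave whole reads for 100% of 19783 genes (tolerance 0.001), used for depth and for voom as an alternative. Libraries of the same lysate share a lysate name, so lysate was a replicate block in an alternative fit. Over genes, deviations from the group means had a correlation between both libraries of a lysate of 0.0865 for WT and 0.0503 for cKO, and between WT and cKO libraries of the same number of 0.332 (early) and 0.143 (late). The labels tie no WT lysate to a cKO lysate by number.

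Positions, UTRs and coding lengths came from GENCODE M21 on GRCm38, the build also known as mm10. The members, lists and tests were chosen with earlier results of these data known. Named genes were the members, Mex3a, up to 3 rising and 3 falling genes per list past the threshold with a mean scaled TPM of at least 5, 5 genes fixed by name, the 2 genes nearest to each member, and the 6 most abundant other hairpin genes. The text prints part of them. Alternatives were pseudocounts of 0.1 and 0.5, no filter, a filter at a mean TPM of 5, quantile normalization, unscaled deposited TPM and no trend. Others were each library left out (each whole lysate for lysate means), replicate blocks, only the 4 libraries compared, and voom. The Cre line and some genes of the lists are not reported here. Figures were drawn with matplotlib 3.10.9.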

Additional observations from a re-analysis of the deposited data

How the results depend on the processing

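With 2 libraries a group, calls near the threshold were unstable. The count of 6 members past the threshold in late against early polysomes, averaged over genotypes, was 3 without the mean-variance trend and 3 to 5 when 1 library was left out. In WT the count of 2 was 4 in TPM as deposited and 1 to 3 with 1 library left out, and in cKO the count of 4 was 3 to 5. With lysate as a replicate block the counts were 6, 3 and 4, Ftl1 entering and Ireb2 leaving the average and Tfrc entering WT. Blocked by replicate number, which no label ties to a shared batch, 0 members passed between genotypes. In that block Fth1 had an unadjusted p of 0.00648 in early polysomes (adjusted 0.482, limma) and 0.00398 on lysate means (adjusted 0.0945), and Ftl1 of 0.0494 in late polysomes (adjusted 0.424) and 0.00688 on lysate means (adjusted 0.112). TPM as deposited moved the median of all genes by 0.10 (late against early), and quantile normalization by 0.064. Genotype and interaction counts of members were 0 in every alternative run. Over all genes, early genotype calls (7) went to 2 with a mean TPM of at least 5, 11 with no filter, 0 with only the 4 libraries and 12 with voom. Late calls (2) went to 1, 4, 1 and 15, to 5 without the trend and to 1 with a pseudocount of 0.1. Lysate calls (1) went to 80 with the block, 58 with voom, and 0 with no filter or no trend. Interaction calls (1) went to 6 with no filter, 2 without the trend, and 0 with voom or a mean TPM of at least 5. Leaving out 1 library, or 1 whole lysate for lysate means, also moved these counts. Without WT early replicate 2 the WT shift called 5867 of 16097 genes, down from 8828. The shares of genes with a hairpin fell to 0.151% (5′ UTR) and 0.615% (3′ UTR) with all 5 stem bases paired.

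No value past the threshold turned its sign in the alternatives run. In TPM as deposited, late Aco1 between genotypes was -0.025 and Slc40a1 in WT late against early 0.0088. With a mean TPM of at least 5, late Aco1 was -0.0018 and the Ftl1 interaction -0.0012. Quantile normalization put the shifts of Rgs5 at 0.057 and Rpsa at 0.14, and voom put Slc40a1 on lysate means at 0.092. Each leave-out run dropped 1 library, or for lysate means both libraries of 1 lysate. In these runs Aco1 ran from -0.28 to 0.065 (early genotype), -0.032 to 0.049 (late), -0.16 to 0.057 (lysate) and -0.056 to 0.29 (interaction). Tfrc ran from -0.28 to 0.18 (early), -0.34 to 0.065 (lysate) and -0.41 to 0.058 (interaction). Ftl1 ran from -0.077 to 0.64 (late), -0.0060 to 0.55 (lysate), -0.34 to 0.38 (interaction) and -0.63 to 0.094 (cKO late against early). Slc11a2 ran from -0.078 to 0.0064 (early) and -0.0059 to 0.14 (lysate), Slc40a1 from -0.13 to 0.078 (lysate) and -0.19 to 0.024 (WT late against early), late Fth1 from -0.066 to 0.26, and the Alas2 shift from -0.044 to 0.23. Slc40a1, on 31 to 114 reads per library, is the member whose depth limits it most.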

Other observations

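Beyond the 7 members, other genes whose UTRs held the hairpin letters moved both ways between fractions. Of 164 tested genes with it in the 5′ UTR, members left out, 70 rose and 40 fell between early and late polysomes, with a median change of 0.15 beside -0.01 over all tested genes, 34.2% of which rose and 34.8% of which fell. Of 740 with it in the 3′ UTR, 287 rose and 247 fell (median 0.04). Among the 6 with the highest level, Calm3, a calmodulin gene, fell by 1.09, Ppia, cyclophilin A, fell by 0.87, and Arf1, a small GTPase of vesicle traffic, fell by 0.56. Bpifb5, a secreted protein gene, rose by 0.91 (SE 0.19, adjusted p = 0.00229 by limma with Benjamini-Hochberg). Uchl1, a neuronal deubiquitinase, and Rgs5, a regulator of G protein signalling, changed by -0.20 and -0.17 and did not pass. These counts and genes allow 1 unpaired stem base. With all 5 stem bases paired, 8 of 23 tested genes rose and 6 fell for the 5′ UTR (median 0.09). For the 3′ UTR 49 of 114 rose and 42 fell (median 0.13). The coding lengths of the hairpin genes were not compared with those of all genes.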
